A study of Mus musculus with 10 samples.

Results

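The 38 Hox genes described here are the members of the *Hoxa*, *Hoxb*, *Hoxc* and *Hoxd* clusters that were taken by name from the 22359 protein-coding genes of the GENCODE M1 annotation. Their chromatin was profiled by ChIP-Rx, a ChIP-seq in which Drosophila S2 cells are mixed in as a reference, in mouse ES cells that had differentiated as aggregates (embryoid bodies, EBs) until day 4 and were then sorted for mCherry. WT cells, labelled *Scl* wt, carried *Scl:mCherry*, a reporter placed at a single allele of the gene for SCL in J1 ES cells. Delta cells, labelled *Scl* d/d, were made from the *Scl:mCherry* line and are homozygous for a deletion of the bHLH domain, the DNA-binding part of the protein, so that the WT and Delta cells share the reporter by which they were sorted. Cells need this transcription factor, SCL or TAL1, to enter the blood fate. Each line was expanded from a single sorted cell and is thus 1 clone. The strain is given as C57Bl/6 X Sv129 for the H2AK119ub libraries and the Delta H3K27me3 library, with a different number after Sv in each of the other labels. The 4 marks H2AK119ub, H3K27me3, H3K4me3 and H3K27ac each had 1 library per genotype, so no difference between WT and Delta has a replicate check and none was tested.

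Hox genes encode homeodomain transcription factors that give cells their position along the body axis. The genes lie in clusters in the order in which they are used, with low paralogue numbers expressed early and in anterior tissue and high numbers late and in posterior tissue. Before activation the clusters are classical Polycomb targets. Polycomb complex PRC2 writes H3K27me3 and PRC1 writes H2AK119ub, while H3K4me3, written by the Trithorax-related methyltransferases, sits at CpG-rich start sites, and H3K27ac accompanies active promoters and enhancers. In the mouse embryo, posterior mesoderm and the early blood lineages use several Hox genes, among them *Hoxa9* and Hoxa10.

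Values below come from lists of broad peaks, which hold positions where a mark passed the peak caller's limit and not the level of the mark. A gene had a mark when a peak came within 2500 bp of the transcription start site (TSS) of any of its protein-coding transcripts, and the TSS window is the union of these stretches. The windows of 14 members overlap that of a neighbour and are not independent. Window length ran from 5001 bp, at members with a single TSS, to 26709 bp at *Hoxd3*. A covered share thus depends on the window as well as on the peaks. Of all protein-coding genes, 60.7% had H3K4me3 in WT and 60.3% in Delta, and 34.8% and 32.7% had H3K27me3. H3K27ac was at 19.9% and 22.8% of genes, and H2AK119ub at 9.21% and 5% of them. These shares are the background against which the counts of Hox genes are given. In the sorted cells, H3K4me3 lay at 6 of 6 blood and haemangioblast genes (*Tal1*, *Kdr*, *Etv2*, *Lmo2*, *Fli1* and *Gata2*) in both genotypes. H3K27ac lay at 4 of these 6 in WT and at 0 of 6 in Delta. At the genes of other mesoderm (*Mesp1*, *Tbx6* and *Pdgfra*), H3K4me3 lay at 3 of 3 and H3K27ac at 0 of 3 in both. At *Tal1* itself, which encodes SCL, H3K4me3 covered 75.4% of the TSS window in WT and 51.7% in Delta, which does not test the deletion.

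The clusters spanned 485 kb of the mm9 genome, from the start of the outermost member to the end of the last. *Hoxa* (10 genes, 98.5 kb) lies on the minus strand of chromosome 6, chr6:52112350-52210874. The other clusters are on the plus strand, with *Hoxb* (10 genes, 174 kb) at chr11:96055630-96229570, *Hoxc* (9 genes, 116 kb) at chr15:102751534-102867274 and *Hoxd* (9 genes, 96.8 kb) at chr2:74506367-74603200. They were rich in CpG. The genome held 8.34 CpG per kb, and the clusters held 29.9 (*Hoxa*), 20.9 (*Hoxb*), 21.5 (*Hoxc*) and 28 (*Hoxd*). At the TSS windows, 37 of 38 Hox genes lay above the median of all genes, 17.8 CpG per kb, the exception being *Hoxc4* with 16. The values ran from there to 56.3 at Hoxd11.

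To show what these start sites look like, the 200 bases just before a TSS are given for 4 members whose marks are described further on, 5′ to 3′ on the gene's strand and with each CG in capitals. None of these stretches overlaps an annotated exon. The *Hoxa13* stretch lay wholly under H3K4me3 in both genotypes, and *Hoxa6* had no H3K4me3 at all. The *Hoxa10* stretch belongs to a start site without H3K4me3 within 2500 bp, and lay wholly under H2AK119ub in WT and outside it in Delta. The *Hoxc9* stretch lay under H2AK119ub in both genotypes and under H3K4me3 in neither, although an H3K4me3 peak was called in WT that lay nearer to another start site of Hoxc9. The last sequence is the middle of the longest stretch of any cluster that lay outside H3K27me3 peaks in both genotypes. That stretch, of 11633 bp, lies between *Hoxb13* and Hoxb9.
*Hoxa13*, 33 CG, chr6:52210875-52211074, minus strand: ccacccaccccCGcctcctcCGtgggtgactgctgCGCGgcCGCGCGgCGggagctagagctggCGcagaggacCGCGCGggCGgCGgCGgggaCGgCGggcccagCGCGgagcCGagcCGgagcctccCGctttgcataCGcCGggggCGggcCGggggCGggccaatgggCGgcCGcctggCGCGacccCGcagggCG
*Hoxa10*, 19 CG, chr6:52184939-52185138, minus strand: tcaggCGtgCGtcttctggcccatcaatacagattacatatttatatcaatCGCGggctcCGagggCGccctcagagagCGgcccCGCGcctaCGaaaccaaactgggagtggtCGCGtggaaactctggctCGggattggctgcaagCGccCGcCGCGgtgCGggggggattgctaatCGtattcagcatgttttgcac
*Hoxc9*, 15 CG, chr15:102806670-102806869, plus strand: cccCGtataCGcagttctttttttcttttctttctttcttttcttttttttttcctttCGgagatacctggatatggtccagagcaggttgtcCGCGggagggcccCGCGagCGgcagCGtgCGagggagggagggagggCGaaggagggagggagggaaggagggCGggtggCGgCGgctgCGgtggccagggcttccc
*Hoxa6*, 22 CG, chr6:52158722-52158921, minus strand: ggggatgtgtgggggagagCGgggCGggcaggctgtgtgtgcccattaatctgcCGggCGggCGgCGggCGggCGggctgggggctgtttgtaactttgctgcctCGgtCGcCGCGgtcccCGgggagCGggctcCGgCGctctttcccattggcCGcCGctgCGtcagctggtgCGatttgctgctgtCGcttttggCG
Between *Hoxb13* and *Hoxb9*, 1 CG, chr11:96083434-96083633, plus strand: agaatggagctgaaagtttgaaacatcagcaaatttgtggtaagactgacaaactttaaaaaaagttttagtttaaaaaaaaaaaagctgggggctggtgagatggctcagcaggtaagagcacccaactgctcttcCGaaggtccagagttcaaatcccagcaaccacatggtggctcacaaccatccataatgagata

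H3K27me3, the PRC2 mark, lay over the clusters as a few very long domains whose extent differed little between WT and Delta. From spike-in scaled signal and western blots, the paper reports a global reduction of H3K27me3 and H2AK119ub in Delta. Peak extents and fold enrichments carry no such scaling and do not measure it. H3K27me3 covered 90.2% of the 4 clusters in WT and 90.7% in Delta, and 98.8% of the bases covered in WT were also covered in Delta. All 38 genes had it at a TSS in both genotypes, where 79.8% of all genes with H3K27me3 in WT also had it in Delta. The median H3K27me3 peak of the WT list was 1304 bp long, so this share is not a background matched for peak length. The longest peaks of the whole lists were the Hox domains. They took ranks 1 to 4, 11 and 18 by length of 11345 WT peaks, and ranks 1 to 4 and 9 of 10881 Delta peaks.

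**Figure D1:**
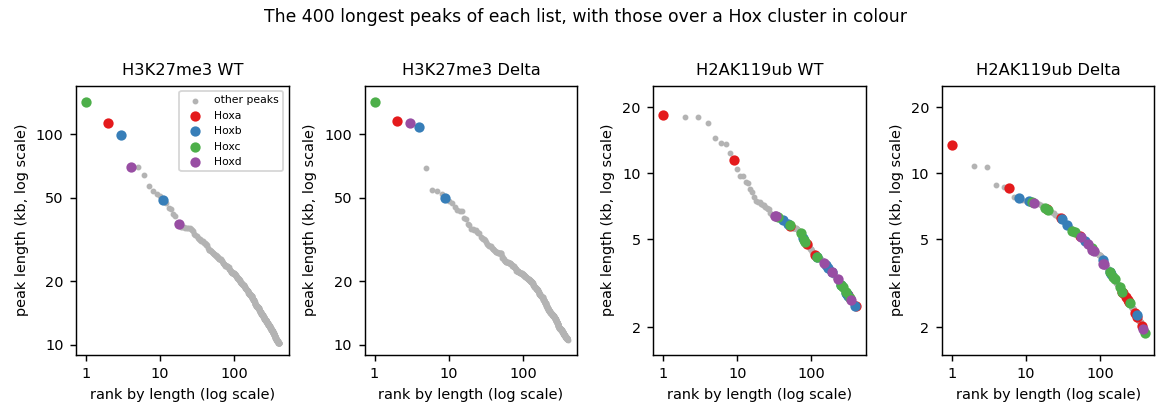
Length in kb against rank by length, both on log scales, for the 400 longest H3K27me3 and H2AK119ub peaks of each genotype, with peaks over a Hox cluster coloured by cluster and all others in grey. The 4 longest H3K27me3 peaks of both genotypes are Hox peaks, and the longest H2AK119ub peak lies in *Hoxa* in both.

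*Hoxc* and *Hoxa* were each covered from end to end by a single H3K27me3 peak. The *Hoxc* peak was 142467 bp long in WT and 142959 bp in Delta, with a fold enrichment over background of 9.66 and 10.4, and spanned all 9 members from *Hoxc13* to Hoxc4. The *Hoxa* peak was 112597 bp long in WT and 116140 bp in Delta, with fold enrichments of 10.7 and 11.1. Both peaks ran past the outermost genes. Beyond *Hoxa13* the domain reached 11655 bp (WT) and 15924 bp (Delta), whereas beyond *Hoxc4* its reach was 7504 bp and 11125 bp. At the posterior end of *Hoxc* the order was turned, with 19222 bp past *Hoxc13* in WT and 16093 bp in Delta.

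*Hoxd* was held by more than 1 H3K27me3 peak in WT and almost wholly by a single one in Delta. In WT a peak of 70091 bp ran over *Hoxd13* to *Hoxd8* and into *Hoxd3*, and another of 37614 bp over *Hoxd4* and the rest of Hoxd3. In Delta a peak of 113628 bp covered both stretches. The WT break between them consisted of stretches of 2053 bp and 1268 bp without a peak, the shorter of which overlaps the TSS window of Hoxd4. The mark covered 92.6% of this window in WT and 100% in Delta. The remaining stretch outside the domain lay just before *Hoxd1*, the anterior end of the cluster, and measured 3244 bp in WT and 2999 bp in Delta.

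*Hoxb* was the only cluster with large parts outside H3K27me3. The mark covered 76.5% of it in WT and 75.9% in Delta, in 10 and 7 peaks, a small difference that turned with peaks of a −log10 q of at least 3 (3.16 percentage points higher in Delta). *Hoxb13*, which stands apart from its neighbours, had its own domain, 48763 bp (WT) and 49732 bp (Delta) long. The main domain measured 99404 bp (WT) and 108486 bp (Delta). The 74 kb between *Hoxb13* and *Hoxb9* were covered to 56% in WT and 52.4% in Delta. In WT the main domain ran from before *Hoxb9* to between *Hoxb3* and *Hoxb2*. A gap of 890 bp parted it from a further WT peak that lay over *Hoxb2*. In Delta a single peak covered both stretches. The TSS window of *Hoxb2* was covered to 82.2% in WT and 100% in Delta. At *Hoxb1*, the anterior end, the values were 61.8% and 71.3%, the lowest of all members. Only *Hoxb1*, *Hoxb2*, *Hoxd1* and *Hoxd4* were not fully covered in WT, and all 4 had a higher covered share in Delta, with 88.1% and 91.4% at Hoxd1.

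**Figure D2:**
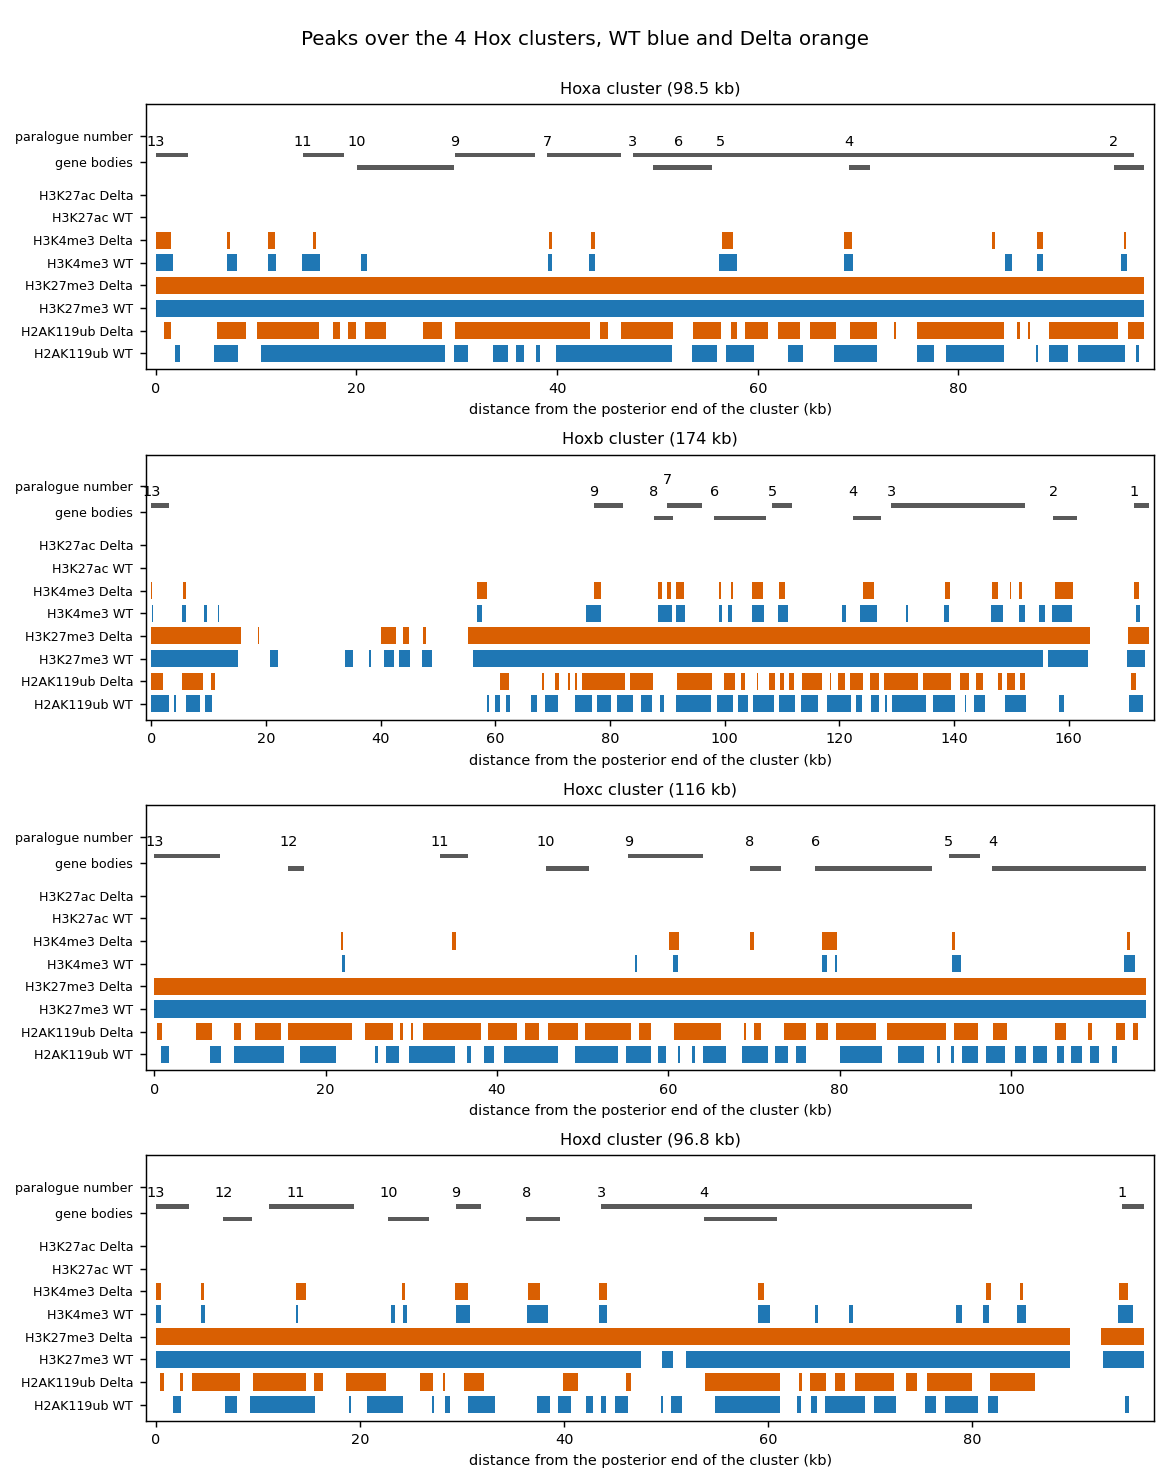
Peaks of the 4 marks along the *Hoxa*, *Hoxb*, *Hoxc* and *Hoxd* clusters, with the distance from the posterior end of the cluster in kb on the horizontal axis, WT peaks in blue and Delta peaks in orange, gene bodies in grey, and each paralogue number at the gene's first TSS. H3K27me3 is unbroken over *Hoxa* and *Hoxc*, H2AK119ub forms separate blocks within it, H3K4me3 forms narrow blocks, and the rows of H3K27ac are empty.

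H2AK119ub, the PRC1 mark, covered about as much of the Hox clusters in Delta as in WT. This is the extent of the peaks and not the level of the mark, which the paper reports as globally lower in Delta. The covered length was 237 kb in WT and 240 kb in Delta, or 48.9% and 49.4% of the clusters, in 104 and 98 peaks. Over the whole lists, the covered length in Delta was 0.54 times that in WT and the number of peaks 0.485 times. The clusters thus made up 4.51% of the length of the WT list and 8.43% of that of the Delta list. The blocks themselves were not in the same places throughout, since 68.8% of the bases covered in WT were also covered in Delta. Of the WT peaks in the clusters, 87 of 104 had a Delta peak on them, where the share over the whole list was 31.5%. Of the Delta peaks in the clusters, 86 of 98 had a WT peak on them, where the share was 67.2%. Peaks of either genotype covered 48.9% or more of the clusters and an overlap of 1 bp was enough. Many peaks there would thus touch one wherever they lay, and the shares over the lists are not a matched background.

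The covered share differed more between clusters than between genotypes. *Hoxa* held most, with 63.7% in WT and 66.7% in Delta, followed by *Hoxc* with 55.9% and 60.3%. *Hoxd* had 42.2% and 46.3%. *Hoxb* had 39.6% and 34.1%, and was the cluster with less in Delta, a direction that turned with equally many top peaks taken per list (a difference of 2.26 percentage points) and with a −log10 q of at least 3 (0.545 points). That of *Hoxd* turned with peaks up to 3000 bp apart joined (-1.66 points), and that of *Hoxc* with a −log10 q of at least 3 (-0.218 points). The order of the clusters *Hoxa*, *Hoxc*, *Hoxd* and *Hoxb* by covered share was the same in WT and Delta. With peaks up to 3000 bp apart joined, *Hoxc* came before *Hoxa*, with 85.5% against 82% in WT and 91.7% against 91.6% in Delta. With a −log10 q of at least 3, no cluster was covered beyond 2.97%, and no order can be read. The longest H2AK119ub peak of either list lay in Hoxa. In WT it was 18332 bp long and ran over *Hoxa10* and *Hoxa11*, and 5 Delta peaks lay on it. In Delta it was 13474 bp long and ran over *Hoxa7* and *Hoxa9*, where WT had 5 peaks. In the other clusters the longest WT peaks were 6125 bp (at *Hoxb7*), 6298 bp (*Hoxc10*) and 6371 bp (*Hoxd11* and *Hoxd12*). The longest Delta peaks there were 7731 bp (*Hoxb13*), 7421 bp (*Hoxc12*) and 7341 bp (*Hoxd3* and *Hoxd4*). The median length of the Hox peaks was 1522 bp in WT and 1552 bp in Delta, against 717 bp and 771 bp over the lists.

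**Figure D3:**
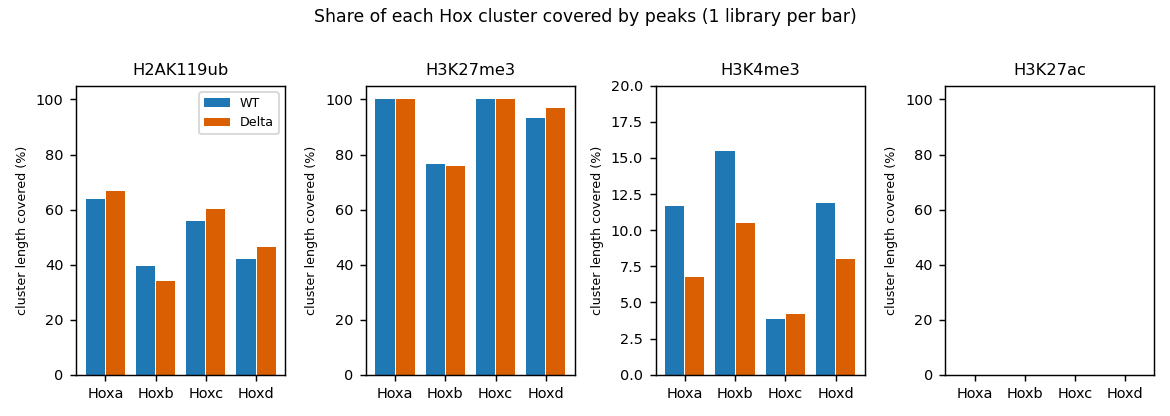
Percent of the length of each Hox cluster covered by peaks of H2AK119ub, H3K27me3, H3K4me3 and H3K27ac, with WT in blue and Delta in orange, 1 library per bar and a shorter axis for H3K4me3. H3K4me3 is lower in Delta in *Hoxa*, *Hoxb* and *Hoxd*, at 6.75%, 10.5% and 8.04% against 11.7%, 15.5% and 11.9% in WT, and H3K27ac is at 0 throughout.

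At the start sites, all 38 Hox genes had H2AK119ub in WT and 35 had it in Delta, against 9.21% and 5% of all genes. Of the genes with the mark in WT, 44.9% of all genes and 35 of 38 Hox genes had it in Delta. A closer comparison is with genes at a WT H3K27me3 peak of 10 kb or more, as nearly all Hox genes are. There 84.8% had H2AK119ub in Delta as well, and so did 34 of the 36 Hox genes among them. The Hox share, 94.4%, lay much nearer to this background than to that of all genes.

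The members without H2AK119ub in Delta were *Hoxb2*, *Hoxd1* and Hoxd8. In WT they had a single peak each, of 891 bp at *Hoxb2* (chr11:96213857-96214747), 444 bp at *Hoxd1* (chr2:74601297-74601740) and 1198 bp at *Hoxd8* (chr2:74543744-74544941). They also had the lowest covered shares of their windows in WT, 17.8%, 8.88% and 21.6%. With equally many top peaks taken per list, *Hoxb2* had no peak in WT either. *Hoxb2*, *Hoxd1* and *Hoxd8* also had the highest fold enrichments of H3K4me3 among the members in WT, 6.03 at *Hoxb2*, 6.21 at *Hoxd1* and 6.08 at *Hoxd8*, a feature picked out after the values were seen. They are anterior or central genes, and *Hoxb2* and *Hoxd1* lie where the H3K27me3 domain is broken.

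Over the 35 genes with H2AK119ub in both genotypes, the covered length was higher in Delta at 19 and lower at 16. The median ratio of Delta to WT was 1.02, where the median over all 925 such genes was 0.75. A covered length at least 1.5 times lower in Delta was found at 8 of 35 Hox genes and at 43.9% of all such genes. A covered length at least 1.5 times higher was found at 4 of 35 and at 18.3%. Most members therefore stayed within 1.5 times, but single genes differed widely in both directions.

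Among the genes lower in Delta, *Hoxc13* had the smallest ratio, with 62.1% of its window covered in WT and 13.8% in Delta. *Hoxb1* had 49.8% and 19.3%, and *Hoxc8* 60.9% and 23.4%. *Hoxa10*, a gene of the posterior group used in blood progenitors, had 100% and 49.1%. With equally many top peaks taken per list, the order turned at *Hoxb1* and *Hoxb5*, which then had H2AK119ub in Delta alone. The neighbours *Hoxb5*, *Hoxb6* and *Hoxb7* were all lower, with 82.8%, 80.8% and 31.9% in WT and 36.9%, 37.6% and 17.7% in Delta, and *Hoxb5* and *Hoxb6* share part of their windows. *Hoxd10* had 71% and 45.3%. Among the genes higher in Delta, *Hoxd12* had the largest ratio, with 22.7% in WT and 83.2% in Delta. *Hoxc5* had 33% and 82.5%, *Hoxc6* 50.4% and 82.9%, and *Hoxa9*, also a posterior gene used in blood progenitors, 53.5% and 86.7%. The genes of the *Hoxc* cluster were thus found at both ends.

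Other members had closely matched shares. *Hoxa2* had 79.1% in WT and 79.8% in Delta, *Hoxa3* 63.6% and 64.7%, and *Hoxa6* 59.1% and 60.4%. *Hoxb13*, the gene with its own H3K27me3 domain, had 89.5% and 91.3%. *Hoxc9*, *Hoxc10* and *Hoxc11* had 74.9%, 77.9% and 84.8% in WT and 77.1%, 76.5% and 90% in Delta. *Hoxd11* had 81.3% and 81.2%. By paralogue number, the median covered share was 63.6% in WT and 62.6% in Delta for the anterior genes (1 to 3), 59.7% and 60.4% for the central genes (4 to 8), and 72.9% and 79.2% for the posterior genes (9 to 13).

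**Figure D4:**
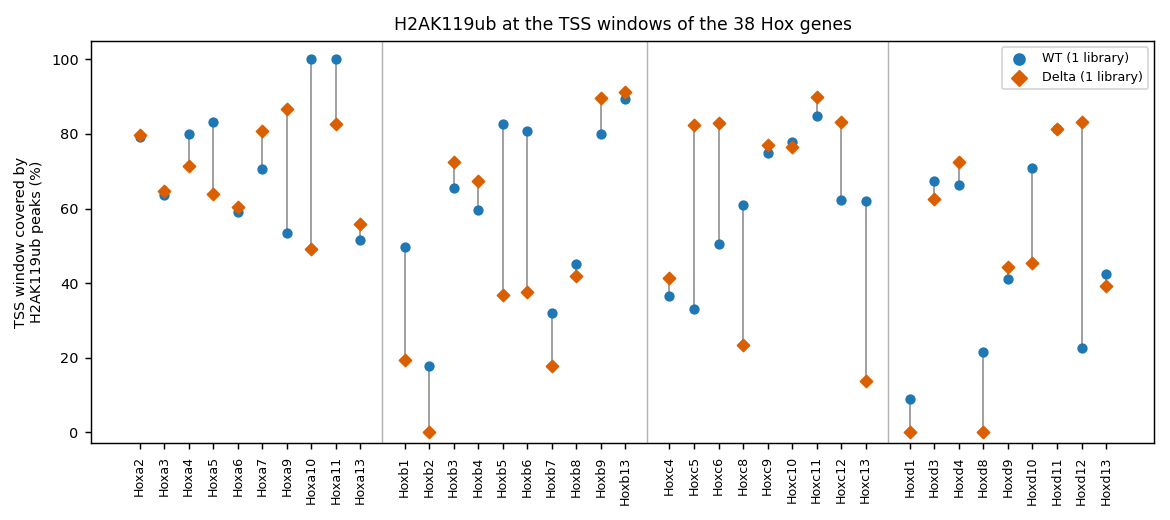
Percent of the TSS window covered by H2AK119ub peaks for each of the 38 Hox genes, ordered by cluster and paralogue number, with WT as blue circles and Delta as orange diamonds joined by a line (1 library each). *Hoxb2*, *Hoxd1* and *Hoxd8* are at 0 in Delta, and the shares of *Hoxc5*, *Hoxc6* and *Hoxd12* are higher in Delta than in WT.

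The H2AK119ub peaks were weak by the peak caller's measure. Their median −log10 q in the clusters was 2.18 in WT and 2.17 in Delta, above the medians of the lists, 1.87 and 1.92. With peaks of a −log10 q of at least 3 alone, which kept 99 WT and 49 Delta peaks of the lists, 0 Hox genes in WT and 2 in Delta had the mark. With equally many top peaks by −log10 p taken per list, the clusters were covered to 43.7% in WT and 49.4% in Delta.

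H3K4me3 covered less of the Hox clusters in Delta than in WT. It covered 54.6 kb in WT and 37.6 kb in Delta, or 11.3% and 7.75%, a ratio of 0.689 where the ratio over the whole lists was 0.908. In *Hoxa* the share was 11.7% in WT and 6.75% in Delta, in *Hoxb* 15.5% and 10.5%, and in *Hoxd* 11.9% and 8.04%. *Hoxc* held the least and did not follow, with 3.86% and 4.17%. There the direction turned with peaks of a −log10 q of at least 3 (a difference of -2.23 percentage points) and with joined peaks (-0.505 points). Of the WT peaks in the clusters, 43 of 55 had a Delta peak on them, against 92.1% of the whole list, and of the Delta peaks 43 of 47 had a WT peak, against 96%.

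At the start sites the number of Hox genes with H3K4me3 was 31 of 38 in each genotype, and 29 of the 31 in WT also had it in Delta, where 98.3% of all such genes did. Because every Hox gene had H3K27me3, the same 31 genes of each genotype carried H3K4me3 and H3K27me3 together. Over all genes this was so for 32.4% in WT and 30.1% in Delta. Over the 29 genes with H3K4me3 in both, the covered length was lower in Delta at 25 and higher at 4, and the median ratio of Delta to WT was 0.646. Over all 13324 such genes the median was 0.931. A covered length at least 1.5 times lower in Delta was found at 15 of 29 Hox genes and at 9.54% of all genes. Among genes that also had H3K27me3 in WT, the share was 8.82%. A covered length at least 1.5 times higher was found at 3 of 29 Hox genes and at 2.96% of all genes. Cluster H3K4me3 peaks had a median −log10 q of 4.64 (WT) and 3.19 (Delta), against 12.8 and 9.93 over the lists. The shares and ratios over the lists and over all genes are thus not matched for peak strength.

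*Hoxb* had the widest H3K4me3, with a median covered share of the TSS window of 40.2% in WT and 23.4% in Delta. *Hoxb2*, an anterior gene of the hindbrain, had 76.8% and 44.5%. Its main peak was 3442 bp long in WT, covering the TSS, and 3089 bp in Delta, starting 278 bp from the TSS, with fold enrichments of 6.03 and 4.79. A further WT peak of 1194 bp upstream of *Hoxb2* had no partner in its window in Delta. *Hoxb9* had 52.3% and 24.6%, *Hoxb4* 39.6% and 15.7%, and *Hoxb3* 17% and 9.87%. *Hoxb7* had 64.8% and 45.8%, *Hoxb8* 40.8% and 23.6%, and *Hoxb5* 53.7% and 39.7%. *Hoxb6* differed least of these, with 26.8% and 23.2%. The outermost genes went the other way, with 13.4% and 16% at *Hoxb1* and 3.24% and 14.9% at Hoxb13.

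In *Hoxa* the largest difference was at *Hoxa11*, a gene of limb and reproductive tract patterning, with 35% of the window covered in WT and 5.4% in Delta, the smallest ratio of all members (0.154). *Hoxa5* had 36.7% and 23.7%, and *Hoxa2* 11.1% and 4.06%. At the CpG-rich *Hoxa13* the mark was nearly the same, with 44.6% and 41.3% and peaks of 2264 bp and 2097 bp. It was also nearly the same at *Hoxa3*, with 4.18% and 3.91%. *Hoxa4* (17.9% and 15.8%) and *Hoxa7* (11.2% and 7.94%) differed by less than 1.5 times. Every *Hoxa* gene with H3K4me3 had a lower covered share in Delta.

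In *Hoxd*, *Hoxd8* had 37.6% and 22%, *Hoxd1* 30.1% and 18.9%, *Hoxd10* 14.7% and 5.22%, *Hoxd3* 12.7% and 5.38%, and *Hoxd4* 12.4% and 5.93%. *Hoxd9* was covered alike, with 26.7% and 26.3%, and *Hoxd12* and *Hoxd13* differed by less than 1.5 times, with 7.2% and 15.7% in WT and 5.5% and 12% in Delta. *Hoxd11*, the member with the highest CpG content, had the largest ratio of all members in favour of Delta (5.49), with 3.24% and 17.8%, but with peaks of a −log10 q of at least 3 it had the mark in WT alone. *Hoxd11* thus lay between neighbours, *Hoxd10* and *Hoxd12*, that were lower in Delta.

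In *Hoxc*, *Hoxc4* had 13.5% in WT and 3.6% in Delta, and *Hoxc5* 21.2% and 7.58%. *Hoxc6* had 6.63% and 15.1%, with 2 WT peaks and 1 Delta peak of 1850 bp, whose −log10 q of 2.83 was under 3, so that with a limit of 3 *Hoxc6* had the mark in WT alone. The remaining *Hoxc* genes had H3K4me3 in a single genotype or in neither. In WT, 4 of 9 *Hoxc* genes had the mark and in Delta 5 of 9, where 10 of 10 *Hoxb* genes and 9 of 9 *Hoxd* genes had it in both genotypes. By paralogue number, 7 of 7 anterior genes had the mark in both genotypes. Of the central genes 13 of 15 had it in WT and 14 of 15 in Delta, and of the posterior genes 11 of 16 and 10 of 16, with median covered shares of 5.24% and 5.45%.

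**Figure D5:**
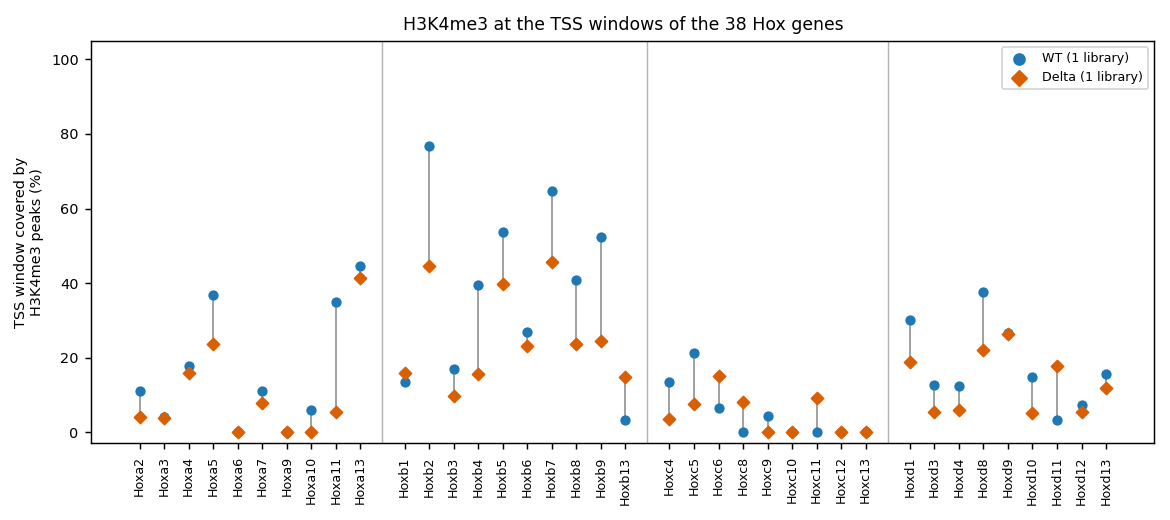
Percent of the TSS window covered by H3K4me3 peaks for each of the 38 Hox genes, ordered by cluster and paralogue number, with WT as blue circles and Delta as orange diamonds joined by a line (1 library each). Of 29 genes with the mark in both, 25 are lower in Delta, and *Hoxb1*, *Hoxb13*, *Hoxc6* and *Hoxd11* are higher.

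H3K4me3 was called in WT alone at *Hoxa10* and *Hoxc9*, and in Delta alone at *Hoxc8* and Hoxc11. The *Hoxa10* peak (chr6:52189845-52190453) was 609 bp long, with a fold enrichment of 5.07 and a −log10 q of 6.17. It was the strongest of these peaks, and lay 400 bp from a start site of *Hoxa10* other than the one whose sequence is shown. The *Hoxc9* peak (chr15:102807635-102807880) was 246 bp long, with a fold of 3.57 and a −log10 q of 3.25. The Delta peaks were weaker, with a fold of 3.21 and a −log10 q of 1.97 at *Hoxc8* (chr15:102821079-102821483) and of 3.78 and 2.57 at *Hoxc11* (chr15:102786318-102786772). The *Hoxc11* peak lay 1460 bp from the TSS. With a −log10 q of at least 3, neither Delta peak remained, 10 Hox genes had H3K4me3 in WT alone and 1, *Hoxb1*, in Delta alone. With a distance of 1000 bp to the TSS, the numbers were 6 in WT alone and 1 in Delta alone. The genes with no H3K4me3 in either genotype were *Hoxa6*, *Hoxa9*, *Hoxc10*, *Hoxc12* and Hoxc13.

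The H3K4me3 peaks at Hox genes were among the weaker ones. All 31 genes with the mark in WT, and all 31 in Delta, had a highest fold enrichment below the median of their list, with a median over the genes of 4.44 against 6.42 for all WT peaks, and 3.88 against 6.01 in Delta. The Delta list as a whole thus had lower folds, and the part of this in the narrower Hox peaks was not tested. Of the 29 genes with the mark in both, 22 had a lower highest fold in Delta and 7 a higher one. The mark sat on the CpG-rich bases of the clusters. Inside H3K4me3 peaks there were 64.2 CpG per kb in WT and 72 in Delta, and outside them 19.2 and 20.3. H2AK119ub showed a smaller contrast, with 27.9 CpG per kb inside and 20.8 outside in WT, and 26.8 and 21.8 in Delta. Cluster bases outside H3K27me3 had 9.75 in both genotypes, near the value of the genome. CpG content did not set apart the genes without H3K4me3. Their windows held 25.4 to 39.2 CpG per kb (median 34.8, 5 genes), and those of the 29 genes with the mark in both genotypes 16 to 56.3 (median 34.2).

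The H2AK119ub and H3K4me3 peaks of the clusters all lay on H3K27me3. All 104 WT and 98 Delta H2AK119ub peaks touched an H3K27me3 peak, where 74.8% and 94.7% of the lists did. All 55 WT and 47 Delta H3K4me3 peaks did so too, where 50.6% and 48.2% of the lists did. As H3K27me3 covered 90.2% of the clusters in WT and 90.7% in Delta, nearly any peak there would touch it. These counts therefore say little about either mark. Of the bases under H3K4me3 in the clusters, 51.9% also lay under H2AK119ub in WT and 39.5% in Delta, against 4.21% and 2.11% over the lists. Seen from the other mark the order was turned, since 11.9% of the H2AK119ub bases in the clusters lay under H3K4me3 in WT and 6.2% in Delta, against 18.4% and 15.5% over the lists. As H2AK119ub covered 48.9% and 49.4% of the clusters, the WT share was near that of the clusters as a whole and the Delta share below it. The clusters were not alike. In *Hoxc* the share was 12.5% in WT and 45.6% in Delta, whereas in *Hoxa* it was 64.8% and 45.3%, in *Hoxb* 55.2% and 37.2%, and in *Hoxd* 46.2% and 36.3%.

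H3K27ac, the mark of active promoters and enhancers, had 0 peaks in any cluster and lay at 0 of 38 Hox start sites in both genotypes, against 19.9% and 22.8% of all genes. The nearest peak to *Hoxd* was 60.7 kb away in WT and 60.8 kb in Delta, by the start of *Mtx2*, and that to *Hoxc* was 203 kb away in both, by the start of Hnrnpa1. For *Hoxa* the distances were 280 kb and 453 kb. For *Hoxb* they were 42.9 kb in WT, beyond *Hoxb1*, and 129 kb in Delta, on the other side of the cluster. The lists hold no region below the caller's limit, so that weak acetylation would not be seen in them.

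The clusters also hold 6 microRNA genes, which are shown because they lie inside the same domains. The mature sequences, from RefSeq for GRCm38.p6, are given 5′ to 3′ with the seed, bases 2 to 8, in capitals. The miR-10 genes share a seed, and so do the miR-196 genes.
miR-10a-5p, *Hoxb*: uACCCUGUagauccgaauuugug
miR-10b-5p, *Hoxd*: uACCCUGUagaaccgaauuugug
miR-196a-5p, *Hoxb* and *Hoxc*: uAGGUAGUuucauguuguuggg
miR-196b-5p, *Hoxa*: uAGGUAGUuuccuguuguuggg
miR-615-3p, *Hoxc*: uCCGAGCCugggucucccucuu

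The hairpins of all 6 microRNA genes lay wholly within H3K27me3 in both genotypes and 0% within H3K27ac. *Mir196b*, by *Hoxa9*, *Mir10b*, by *Hoxd4*, and *Mir196a-2*, between *Hoxc10* and *Hoxc9*, were fully covered by H2AK119ub in both. *Mir10a*, by *Hoxb4*, was covered to 12.7% in WT and 100% in Delta, and *Mir196a-1*, before *Hoxb9*, to 27.5% and 100%. *Mir615*, within *Hoxc5*, was the only one with H3K4me3, which covered 100% of it in WT and 0% in Delta, while H2AK119ub covered 0% in WT and 100% in Delta. *Mir615* thus lay under H3K4me3 in WT and under H2AK119ub in Delta, at the same place where *Hoxc5* had less H3K4me3 and more H2AK119ub in Delta. Among the long non-coding RNAs, *Hoxa11as*, which overlaps *Hoxa11*, was covered by H3K4me3 to 46.9% in WT and 17.8% in Delta, and by H2AK119ub to 100% and 96.6%.

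Related genes outside the clusters gave a comparison. The Hox-linked and ParaHox genes *Gsx1*, *Gsx2*, *Pdx1*, *Evx1*, *Evx2*, *Mnx1* and *Gbx2* encode homeodomain proteins related to or neighbouring the Hox genes. They resembled the members, with H3K27me3, H2AK119ub and H3K4me3 at 7 of 7 in WT and at 6 of 7 in Delta, and H3K27ac at 0 of 7. *Evx1*, beyond *Hoxa13*, had neither H3K27me3 nor H2AK119ub in Delta, with 68.7% and 22.1% of its window covered in WT, and its H3K4me3 covered 64.4% in WT and 100% in Delta. *Evx2*, beyond *Hoxd13*, had H3K27me3 over 100% of its window in both, and lacked H3K4me3 in Delta, where 12% was covered in WT. The neighbours *Evx1* and *Hoxa13* thus differed, since *Hoxa13* had H3K27me3 over 100% of its window in both genotypes.

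*Meis1*, a cofactor of *Hoxa9* in blood progenitors, had H3K27me3 over 100% of its window in WT and 90.2% in Delta, and H2AK119ub over 39.4% and 19%. Of 9 known upstream regulators of Hox genes, 8 were found by symbol, namely *Cdx1*, *Cdx2*, *Cdx4*, *Rara*, *Rarb*, *Rarg*, *Cyp26a1* and Men1. H3K4me3 lay at 7 of 8 in each genotype and H3K27me3 at 6 of 8, but not at the same genes. H3K4me3 was at 6 in both, with *Cdx1* in WT alone and *Cdx4* in Delta alone. H3K27me3 was at 5 in both, with *Rarg* in WT alone and *Rara* in Delta alone. H2AK119ub lay at 6 of 8 in WT and 3 of 8 in Delta, and H3K27ac at 1 of 8 in each. At *Cdx2*, an activator of the central and posterior Hox genes, H3K27me3 covered 100% of the window in both, and H2AK119ub 84.1% in WT and 35.8% in Delta. H3K4me3 at *Cdx2* was 49.3% and 49.5%.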

How the data were processed

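Histone ChIP-Rx libraries from day 4 mCherry-positive cells were compared between WT and Delta, with 1 library per mark and genotype and 2 input libraries, for which no list was used here. The submitters' processing notes name Trim Galore, Bowtie, SAMtools, bedtools and MACS2 2.0.10. Reads were aligned by the authors to mm9 and, for the spike-in, to dm3, and broad peaks were called for each library against the input of its genotype, without pooling. The spike-in factor scales the authors' signal densities and not the peak calls. The number, width and fold enrichment of peaks can thus move with sequencing depth and input, and do not measure a change in level. The lists do not give the depth of a library, but the paper's reporting summary does. Mapped reads there were more in Delta for H3K4me3, and more in WT for H2AK119ub and H3K27me3. The part of depth in the differences was not tested. With 1 library per mark and genotype, no interval is printed.

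The 8 deposited lists hold 70826 peaks. In each, the authors give the fold enrichment of a peak (a linear ratio over the local background), the −log10 of its p-value and q-value, and a score, which was not used. Coordinates are given from 1 in mm9, and genes are those of GENCODE M1, with 22359 protein-coding genes outside the mitochondrial genome. A peak counted from an overlap of 1 bp, and a TSS window reached 2500 bp to each side. Covered shares join the peaks of a list. Ratios of covered length were formed for genes with the mark in both genotypes, and 1.5 times was the limit for counting one.

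Members were named by cluster and paralogue number. Named peaks were the H3K27me3 peaks of 10 kb or more over a cluster, the longest peak of each other mark per cluster, and those at genes called in 1 genotype alone. Comparison lists were upstream regulators, ParaHox and Hox-linked genes, blood and haemangioblast genes, and other mesoderm. The members and lists were chosen with earlier results of these data known. A further Hox gene, a list of cofactors and some sequences are not reported here. The settings tried besides were a minimum −log10 q of 3, a distance of 1000 bp, joining of peaks up to 3000 bp apart, and the same number of top peaks from both lists.

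Scripts used Python 3.11.15, NumPy 2.4.6, pandas 2.3.3 and matplotlib 3.10.9. They were tested on simulated data, and the coverage of 32 pairs of cluster and list was checked against bedtools 2.31.1, of which 0 differed.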

Additional observations from a re-analysis of the deposited data

How the results depend on the processing

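Of 244 values computed under 4 alternative settings for 76 results, 197 stayed within their limits. The limit was 1.5 times for a count. For a covered share it was a 95% interval with each kb taken as a trial. For a difference it was the spread from such intervals, with the sign kept. The H3K27ac values, 0 under every setting, could not move and count among the 197. Equal numbers of top peaks leave the shorter list of each mark as it was, so its values could not move either. With peaks of a −log10 q of at least 3, Hox genes with H2AK119ub numbered 0 in WT and 2 in Delta, so that 0 had it in WT alone and 2 (Hoxd3 and Hoxd9) in Delta alone, and the clusters were covered to 0.052% and 0.788%. Hox genes with H3K4me3 in Delta then numbered 19, with 10 in WT alone and 1 in Delta alone, and a Delta coverage of 5.63%. The difference between Delta and WT turned to 0.545 percentage points for H2AK119ub in Hoxb, -0.218 for H2AK119ub in Hoxc, 3.16 for H3K27me3 in Hoxb and -2.23 for H3K4me3 in Hoxc. With 1000 bp to the TSS, 6 Hox genes had H3K4me3 in WT alone and 1 in Delta alone. With peaks up to 3000 bp apart joined, coverage was 70.5% (WT) and 72.1% (Delta) for H2AK119ub, 92.8% for H3K27me3 in WT and 16.7% for H3K4me3 in WT. The difference then turned to -0.67 points for H3K27me3 over all 4 clusters, -1.66 for H2AK119ub in Hoxd and -0.505 for H3K4me3 in Hoxc. With the same number of top peaks, H2AK119ub covered 43.7% in WT, 2 Hox genes (Hoxb1 and Hoxb5) had it in Delta alone, and the difference in Hoxb turned to 2.26 points. Fewer peaks enter under the −log10 q limit and the equal numbers, and joining adds the bases between peaks. Beyond this the cause was not tested. No paired analysis was possible because each mark had 1 library per genotype. Peaks under the caller's limit are not in the lists, which bounds what an absent peak can show.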
